A study of Mus musculus with 12 samples.

Results

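The cKO-only regions are stretches of the mouse genome that carried a peak of histone H3 lysine 27 acetylation (H3K27ac) in the shortened peak lists of all 3 libraries of Prdm16 conditional knockout (cKO) cortex and in those of none of the 3 wild-type (WT) libraries. To find them, each of the 6 peak lists was shortened to its 48168 strongest peaks, ranked by the −log10 p that the authors' peak caller gave each peak. Peaks that overlapped or touched across the 6 shortened lists were merged into 63851 regions. Of these, 630 (0.987%) had a peak in all 3 cKO lists and in no WT list. The mirror class, WT-only regions, held 580 (0.908%). Because presence and −log10 p values chose the members, they are given below as a description, with no test, and no p-value is reported for any comparison.

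The cKO embryos were Emx1Ires-Cre; Prdm16flox/flox, and the WT embryos were Prdm16 flox/flox without Cre. All embryos were at stage E15.5, and a lysate of the whole cortex was precipitated with an anti-H3K27ac antibody after native chromatin digestion with micrococcal nuclease. Both groups therefore carried the floxed allele, and the groups differed in the Cre allele as well as in Prdm16. Emx1-driven Cre acts in dorsal forebrain progenitors and their progeny, so cells of other origin in a whole cortex, such as interneurons and vessels, keep an intact Prdm16. In bulk tissue, fewer cells of a type and less acetylation per cell cannot be told apart. Whether each replicate was its own embryo or litter is not in the labels. By the library identifiers, replicates 1 and 2 of both genotypes shared a batch (batch A) and replicate 3 of both shared another (batch B).

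H3K27ac is laid down by the acetyltransferases CBP and p300 on nucleosomes around active enhancers and promoters, and it distinguishes active enhancers from primed ones. In the developing cortex many such enhancers lie inside introns or far from the genes they act on. PRDM16 is a zinc-finger chromatin regulator of the PR-domain family that is made in radial glia, the neural stem cells of the cortex, and its best known relative is MECOM (PRDM3).

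Of the 630 members, 9 touched a promoter window, defined as the 250 bases before to 50 after a gene start. The share over all merged regions was not computed, so whether 9 is few cannot be said. Gene starts were read from RefSeq's table (GRCm38.p6, the assembly behind mm10). The table gives starts for 17492 of the 21887 protein-coding genes, so further starts may have been missed. The 250 upstream bases of Slc35d3, Cyp26b1, Robo3 and Mecom are shown here, because at the first 3 of these genes no WT list had a peak of any strength in the region, and Mecom is the closest relative of Prdm16. Each sequence is printed 5′ to 3′ on the gene's own strand. All 4 genes lie on the minus strand, and the windows are chr10:19851460-19851709 for Slc35d3, chr6:84593811-84594060 for Cyp26b1, chr9:37433176-37433425 for Robo3 and chr3:30013205-30013454 for Mecom. The Mecom member ends at 30013197, so none of the printed Mecom bases lie in it. The members at Cyp26b1 and Robo3 cover the printed bases only in part. Capitals mark TATAAA, the core of a TATA box, the letters CCAAT of the box of that name, and, for the GC box, GGGCGG, each on either strand.
Slc35d3: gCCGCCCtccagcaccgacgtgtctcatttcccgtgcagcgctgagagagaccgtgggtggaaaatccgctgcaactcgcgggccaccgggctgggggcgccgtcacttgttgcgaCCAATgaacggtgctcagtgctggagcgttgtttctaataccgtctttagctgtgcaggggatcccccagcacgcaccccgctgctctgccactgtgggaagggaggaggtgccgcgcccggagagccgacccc
Cyp26b1: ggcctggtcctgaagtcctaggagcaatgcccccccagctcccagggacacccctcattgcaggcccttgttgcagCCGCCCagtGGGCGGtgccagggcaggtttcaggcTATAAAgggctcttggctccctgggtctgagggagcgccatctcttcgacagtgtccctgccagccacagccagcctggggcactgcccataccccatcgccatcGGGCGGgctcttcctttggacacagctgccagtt
Robo3: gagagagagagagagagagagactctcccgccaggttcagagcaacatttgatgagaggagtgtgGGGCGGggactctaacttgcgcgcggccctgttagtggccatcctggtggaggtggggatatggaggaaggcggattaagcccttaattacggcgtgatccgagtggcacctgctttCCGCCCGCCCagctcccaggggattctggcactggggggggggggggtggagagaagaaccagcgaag
Mecom: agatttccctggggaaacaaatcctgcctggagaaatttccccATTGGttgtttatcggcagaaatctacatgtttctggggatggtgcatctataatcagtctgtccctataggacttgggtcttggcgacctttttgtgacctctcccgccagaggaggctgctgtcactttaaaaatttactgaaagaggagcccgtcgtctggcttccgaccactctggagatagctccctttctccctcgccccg
The Slc35d3 window held 22 CpG dinucleotides, against 12 for Robo3, 8 for Mecom and 7 for Cyp26b1. Over the 21263 upstream windows in the table the median was 10 (quartiles 3 and 19). The Cyp26b1 window had a TATAAA and 3 GC boxes, the Robo3 window 3 GC boxes, of which 2 overlap, the Slc35d3 window a GC box and a CCAAT box, and the Mecom window a CCAAT box. The 9 members touched 11 windows in all, since members at Cp and Gpr153 each touched the windows of 2 starts. The starts used for Mecom (30013204), Slc35d3 (19851459) and Robo3 (37433175) are internal, since these minus-strand genes run to 30509759, 19856634 and 37433436. The Mecom member is thus not at the outer start of that gene. TATAAA was found in 3 of the 11 windows and in 11.6% of all windows. CCAAT was found in 4 and in 35.4%, GGGCGG in 7 and in 42.6%, and the E-box letters CANNTG in 8 and in 62.8%. The letters AGATAA were in none of the 11 and in 8.81% of all windows. These are matches of letters and say nothing about binding.

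At Slc35d3, which encodes a member of a family of nucleotide sugar transporters, 2 members lay 16404 bp apart from outer edge to outer edge with no other merged region between them. The first is the strongest of all 630 members when each is ranked by the lowest of its 3 cKO values. It covers chromosome 10 from 19835332 to 19837027 and lies 10890 bp outside the gene. Its strongest peak had a −log10 p of 17.48, 13.48 and 15.25 in cKO replicates 1, 2 and 3, and no WT list had a peak there at any strength. The second covers the internal start used above, from 19849825 to 19851735. It had 5.36, 6.15 and 8.54 in the cKO libraries and again no WT peak. Both regions were thus separated by genotype in the lists as deposited, not only after shortening.

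The 8 other promoter members varied in how nearly the genotypes separated. At Cyp26b1, which encodes an enzyme that breaks down retinoic acid, the region at chromosome 6 from 84593948 to 84594914 had −log10 p values of 5.34, 6.81 and 5.72 in cKO and no WT peak. At Robo3, a receptor of the Slit and Robo family that governs commissural axon crossing, the region at chromosome 9 from 37432675 to 37433266 had 5.19, 5.03 and 4.37 in cKO and no WT peak. At Mecom, the region at chromosome 3 from 30012383 to 30013197 had 5.78, 9.14 and 9.97 in cKO, against 3.70 and 3.06 in WT replicates 1 and 2. The WT values at Mecom were below every cKO value but were called peaks in the full lists. Cp, encoding the copper ferroxidase ceruloplasmin, had 8.89, 8.61 and 7.33 in cKO, against 4.01 in WT replicate 2. At Ccdc83 the separation was narrow, with 6.79, 4.59 and 7.67 in cKO, against 4.58 and 4.65 in WT replicates 1 and 2, so the ranges overlapped. Gpr153, an orphan receptor gene, likewise overlapped, with 5.62, 4.60 and 4.22 in cKO, against 4.11 and 4.54 in WT. The remaining promoter members were at Srd5a2, a steroid 5-alpha-reductase gene, and Kcnip3, which encodes a calcium-binding partner of potassium channels, each with weaker peaks in WT replicates 1 and 2. The −log10 p of a peak is the authors' value and grows with depth, so differences of this kind between libraries describe called peaks, not amounts of acetylation.

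The 20 strongest members were picked for their cKO values, and the rule keeps WT values low, so the gap between genotypes at these 20 was fixed by the choice. Their lowest cKO values ran from 7.25 to 13.48, and the highest WT value at any of them was 4.97, at Prkg1. WT replicate 3, whose list was the shortest and was not shortened, had no peak at any member by construction. Pdzrn3, encoding an E3 ubiquitin ligase with PDZ domains, had 12.91, 10.05 and 10.70 in cKO and no WT peak. Pdk1, a kinase that inhibits pyruvate dehydrogenase, had 11.53, 8.55 and 10.31 in cKO, against 3.64 and 3.50 in WT replicates 1 and 2. Prkg1, the cGMP-dependent protein kinase, had 8.57, 8.30 and 12.20 in cKO, against 4.06 and 4.97. Ttbk1, a tau kinase, and Pag1, a membrane adaptor of Src-family kinase control, followed the same pattern. At Pag1 the cKO values were 14.69, 7.25 and 12.28, against 3.66 and 3.30 in WT. The cKO libraries themselves differed widely at such regions, and their order changed from member to member.

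Plxnc1, a semaphorin receptor, held a region with 11.00, 12.48 and 8.40 in cKO, against 3.28 and 3.68 in WT replicates 1 and 2. Tenm3, a teneurin adhesion protein, held a region of 252 bp with 8.41, 7.49 and 7.58 in cKO and no WT peak. Has2, which makes the matrix polymer hyaluronan, was the nearest gene of 2 strong members, 152382 and 48391 bp away. The farther one had 8.81, 8.51 and 8.27 in cKO and the nearer one 7.27, 10.63 and 10.42, and neither had a WT peak. Nkd2, an inhibitor of Wnt signalling that binds Dishevelled, lay 20999 bp from a region with 7.79, 11.06 and 10.43 in cKO, against 3.58 in WT replicate 2 alone. The nearest gene need not be the gene a region acts on, and several of these distances exceed 20 kb.

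Ncald, a neuronal calcium sensor, held a region of 2708 bp with 11.46, 9.60 and 9.01 in cKO and no WT peak. Ing2, which reads methylated histone H3, was nearest to a region 51574 bp away with 10.09, 7.26 and 8.68 in cKO and no WT peak. Gpr37l1, a receptor of glial cells, was 1882 bp from a region with 9.48, 7.27 and 7.82 in cKO, against 4.24 and 3.62 in WT replicates 1 and 2. The nearest genes of the rest of the 20 were Ppp4r2 (125261 bp away), Lonrf2 (40288 bp away), Tmem178b, Tmem144, Ddhd1 and Cp. Each of these members had a weaker peak in at least 1 WT list. In all, 7 of the 20 strongest and 20 of the 100 strongest members had no WT peak in any full list.

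**Figure D1:**
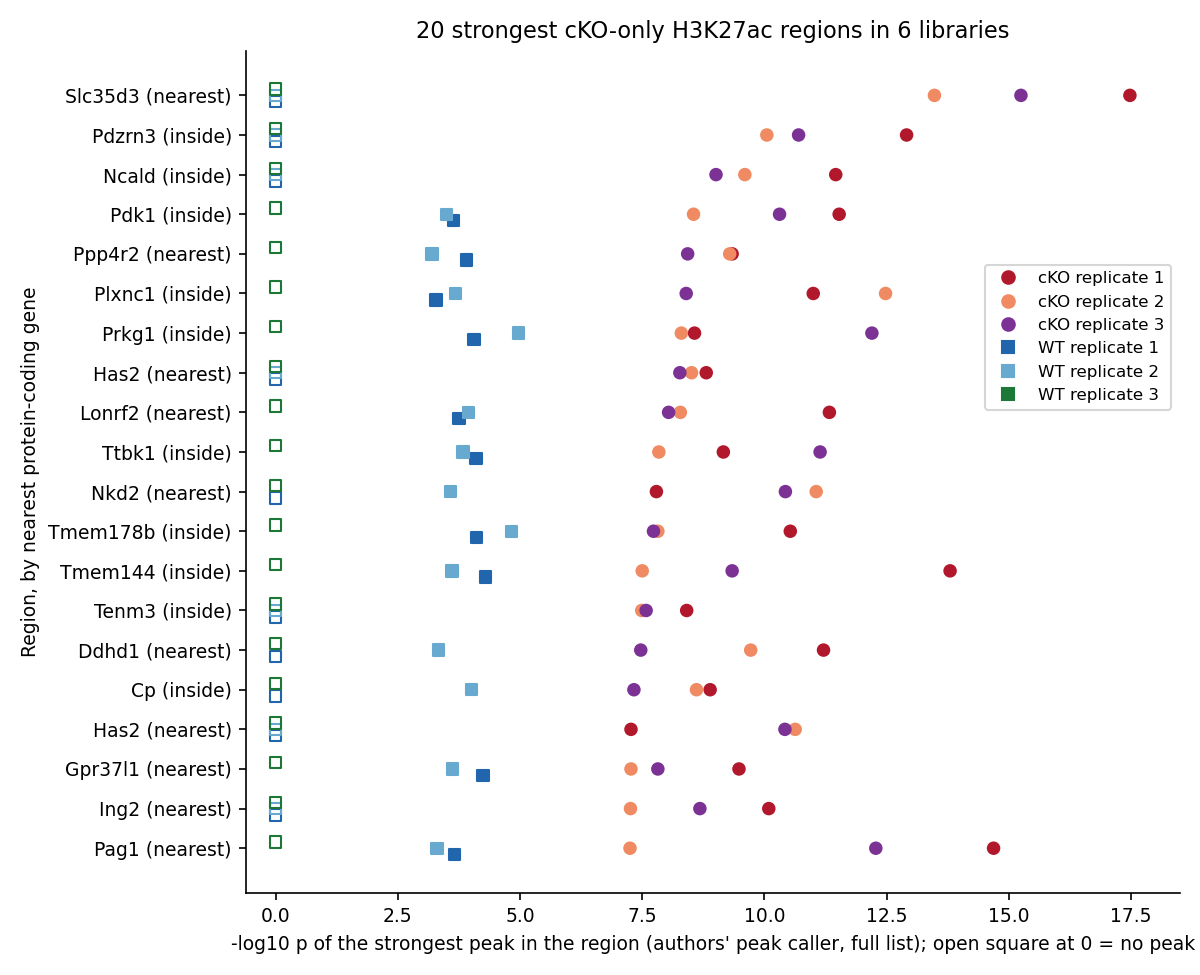
Strongest −log10 p (x axis, the authors' peak caller) in each of the 6 libraries at the 20 strongest cKO-only regions (y axis, by nearest protein-coding gene and whether the region lies inside it), with circles for cKO and squares for WT libraries, and an open square at 0 where the full list has no peak. The cKO circles lie between 7.25 and 17.48, and the WT squares lie at 4.97 or below.

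Pdzrn3 held the group with the most members. Its 4 members were the only merged regions in a stretch of 24955 bp inside the gene, on chromosome 6 from 101350517 to 101375471. Besides the strong one above, the 3 others had 6.10, 5.91 and 7.63, then 8.73, 5.47 and 6.75, then 8.83, 6.37 and 5.47 in cKO replicates 1, 2 and 3. Each of these 3 had a weaker peak in 1 WT list, at 4.88, 3.57 and 3.70. Pdzrn3 was thus marked in every cKO library at 4 neighbouring places where no shortened WT list had a peak. The gene spans 228291 bp and, with 20 kb on each side, held 18 merged regions.

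Sox6 and Sox5, closely related transcription factors that act in cortical projection neurons, interneurons and glia, were the nearest genes of 4 and 3 members. The strongest Sox6 member, inside the gene, had 9.24, 6.65 and 8.24 in cKO and no WT peak. Its 3 others had weaker peaks in both WT replicates 1 and 2, and 1 of them lay 300063 bp away. The Sox5 members all lay inside the gene, and the strongest had 7.14, 5.68 and 6.5 in cKO, against 3.50 and 3.92 in WT. Sox5 was the only gene of the deep-layer list with a member. Sox6 also had 1 WT-only region nearest to it, and Sox5 had none. Long genes catch more regions, so such counts are not a result about the genes. Sox6 spans 569905 bp and Sox5 953863 bp. With 20 kb on each side they held 29 and 75 merged regions, of which 3 each were members.

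Trpm3, a cation channel gene, held 4 members inside it, of which 2 had no WT peak. The strongest of them had 8.61, 8.32 and 5.48 in cKO. Trpm3 spans 857614 bp and, with 20 kb on each side, held 26 merged regions. Kremen1, a receptor for the Wnt inhibitor Dickkopf, had 3 members within 29333 bp on chromosome 11, and all 3 had weaker peaks in both WT replicates 1 and 2. The strongest Kremen1 member had 5.51, 6.36 and 5.82 in cKO, against 4.18 and 4.82 in WT. Kremen1 spans 70163 bp and, with 20 kb on each side, held 9 merged regions. Sema6a, a transmembrane semaphorin, was nearest to 3 members within 20487 bp on chromosome 18, but they lay at least 232819 bp from the gene. The remaining group of 3 members spread over 146591 bp on chromosome 2 around Itga6, an integrin gene, Pdk1 and Rapgef4, with 2 regions common to all 6 lists among them. No WT-only region lay in any of these 4 stretches, that of Pdzrn3 included. They held only 4 to 6 merged regions each, and WT-only regions were 0.908% of all merged regions, so this absence is not a result. Csmd1, Lsamp, Myt1l, Pid1 and Sdk2 were the nearest genes of 3 members each. Of these, Csmd1 had 2 WT-only regions nearest to it, Lsamp 1, and Myt1l, Pid1 and Sdk2 none. Csmd1 spans 1642848 bp, Lsamp 2197426 bp, Myt1l 395627 bp, Pid1 303550 bp and Sdk2 290656 bp. With 20 kb on each side these 5 genes held 17, 44, 37, 9 and 23 merged regions. These windows are a different count from nearest genes. Each of the 5 windows held 2 members, and those of Csmd1, Lsamp and Myt1l also held 1 WT-only region each.

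Prdm16 itself and the progenitor regulators Sox9, Hes1 and Sox2 were the nearest genes of members that ranked 151, 141, 145 and 79 by strength. Prdm16 held 1 member, at chromosome 4 from 154401633 to 154403320 inside the gene, with 5.70, 5.97 and 5.42 in cKO, against 4.27 and 4.55 in WT replicates 1 and 2. The gene spans 321239 bp and, with 20 kb on each side, held 26 merged regions. Sox9, a stem cell and glial factor, was 38668 bp from a member with 8.71, 5.46 and 5.96 in cKO, against 4.27 in WT replicate 1. Hes1, a Notch target that keeps radial glia from becoming neurons, was 69772 bp from a member with 5.77, 5.44 and 5.81, against 4.51 and 4.08. The nearest gene of another member was Sox2, at a distance of 499433 bp.

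Within their own lists the members were weak peaks. Their median rank was 38594.5, 37872 and 38049 among the 48168 peaks of cKO replicates 1, 2 and 3. None of the 630 was in the strongest 25% of any cKO list, and 24, 27 and 27 were in the strongest 50%. The weakest 25% of each list held 61.6%, 61.6% and 59.8% of them. Their median −log10 p was 5.58, 5.36 and 5.50, against list medians of 9.23, 8.65 and 8.86. The median fold enrichment given by the authors' peak caller was 4.09, 3.95 and 4.34. Of the WT-only regions, 65.9%, 70.2% and 64.1% were in the weakest 25% of WT replicates 1, 2 and 3.

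The members were of intermediate width, with a median of 857 bp, quartiles of 596 and 1183 bp and a range of 225 to 3663 bp. The median was 954.5 bp for WT-only regions, 1754 bp for regions in all 6 lists and 282 bp for regions in a single list, and a merged region widens with the number of peaks that enter it. The widest member lay inside Wdr25 and had 5.65, 5.43 and 5.22 in cKO, against 3.49 and 3.98 in WT. It was followed by members at Siah1a (3075 bp), an E3 ubiquitin ligase gene, Gm3985 (2972 bp), Pdzrn3 (2903 bp), Lmo7 (2803 bp) and Ncald (2708 bp). The others of the 10 widest were at 1700012A03Rik, Chd1, a chromatin remodeller gene, Intu, a gene of planar cell polarity and cilia, and Srp9, a subunit of the signal recognition particle. By strength, Pdzrn3, Ncald, Srp9 and Chd1 ranked 2, 3, 22 and 45 of the 630, and Intu and Lmo7 ranked 490 and 507.

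Most members were not free of WT peaks in the lists as deposited. A weaker peak, below rank 48168, overlapped 505 of the 630 in WT replicate 2 (80.2%, exact 95% interval 76.8 to 83.2%) and 362 in WT replicate 1 (57.5%, 53.5 to 61.4%). WT replicate 3 had none, because its list held only 48168 peaks and nothing fell below the rank. Counted over lists, 338 members had a weaker peak in 2 WT lists, 191 in 1 and 101 in none (16%, 13.3 to 19.1%). Of the 101, 98 had no WT peak within 1000 bp either. The overlapping peaks had a median −log10 p of 3.95 in WT replicate 1 and 4.19 in WT replicate 2, and they covered a median of 55.3% and 68.9% of the region. Among WT-only regions, 365 of 580 (62.9%) had a weaker peak in some full cKO list. The cKO lists had fewer peaks below the rank to offer, 6847 to 11041, against 18325 and 27395 in WT replicates 1 and 2, and the part of list length in this difference was not tested.

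**Figure D2:**
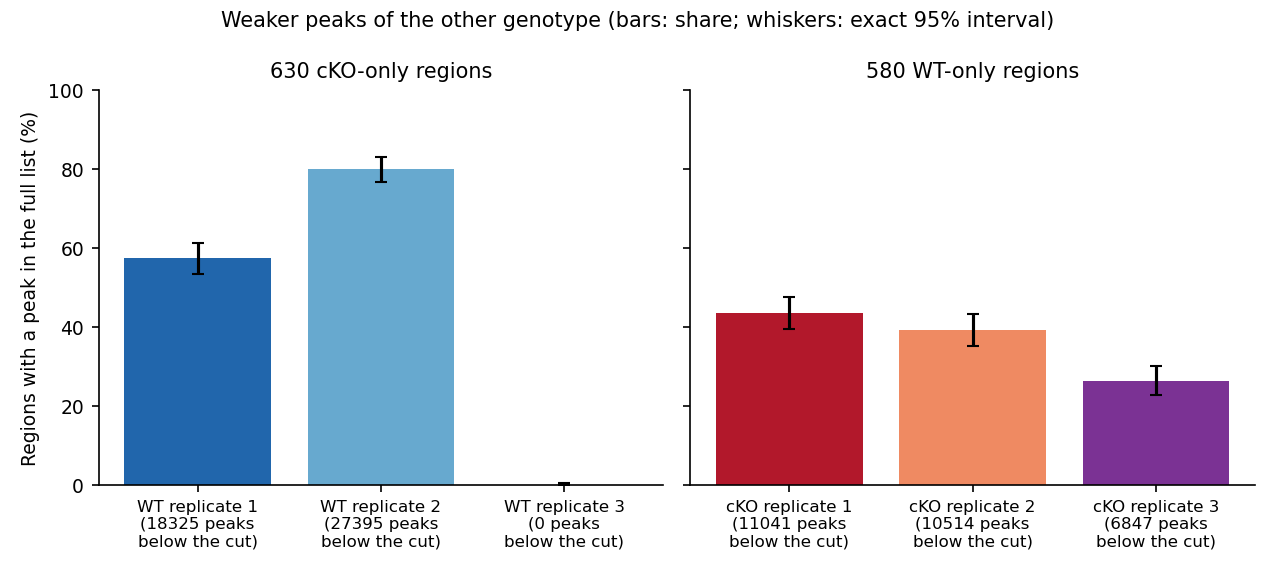
Share of regions with a weaker peak in the full lists of the other genotype (y axis, percent, with exact 95% intervals), for cKO-only regions looked up in WT lists (left) and WT-only regions looked up in cKO lists (right). The shares for cKO-only regions were 57.5%, 80.2% and 0% in WT replicates 1, 2 and 3, and 84.0% in any WT list.

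The 101 members with no WT peak in any full list included Slc35d3 (both members), Pdzrn3, Ncald, both Has2 members, Tenm3, Ing2, Sox6, Cyp26b1 and the Robo3 promoter. Ap1s2, a subunit of a clathrin adaptor, and Kif6, a kinesin gene, completed the 10 strongest without a WT peak within 1000 bp. At Ap1s2 the cKO values were 6.92, 7.44 and 7.09, and at Kif6 they were 7.93, 7.15 and 6.62. These 101 had a median width of 781 bp, against 896 bp for the 338 with peaks in 2 WT lists. They lay farther from regions common to all 6 lists, with a median gap of 26598 bp, against 18009 bp for members with a peak in 1 WT list and 11746 bp for those with 2. Inside a gene lay 51 of the 101 (50.5%, 40.4 to 60.6%), against 206 of the 338 (60.9%, 55.5 to 66.2%), and the intervals overlap. The median of the lowest cKO −log10 p was 4.92, 4.82 and 4.73 for members with a peak in 0, 1 and 2 WT lists.

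Around the centres of the members, the profile of called peaks was narrow. At the centre itself 89.8%, 90.8% and 84.1% of members were under a peak in the full lists of cKO replicates 1, 2 and 3, against 45.1%, 69.2% and 0% in WT replicates 1, 2 and 3. In the shortened lists the cKO shares were the same and the WT shares were 0, as the rule requires.

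**Figure D3:**
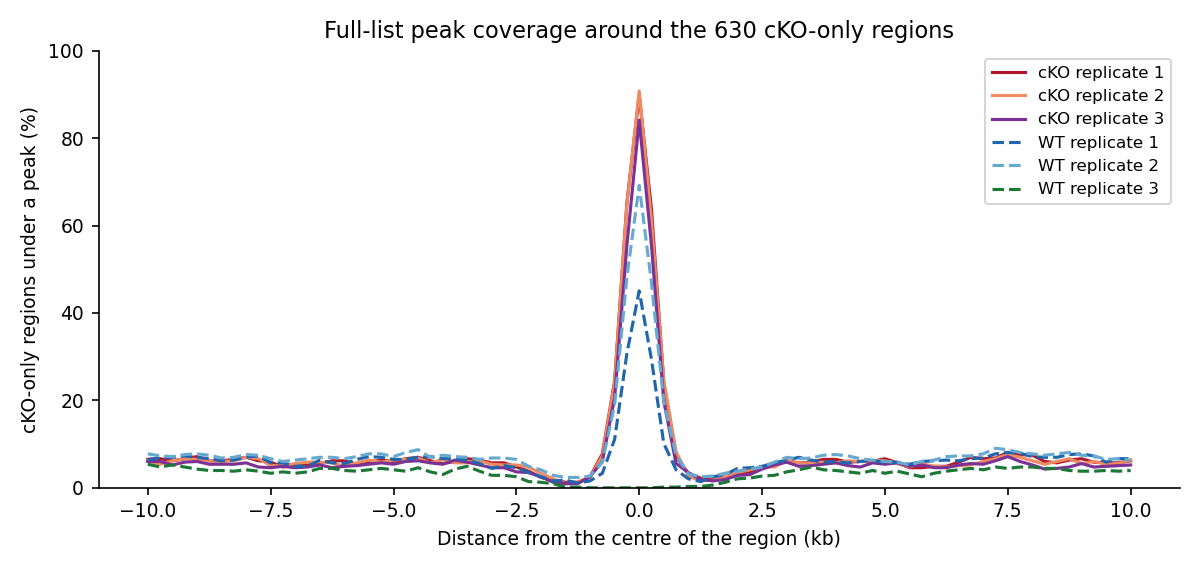
Share of cKO-only regions under a called peak of the full lists (y axis, percent) by distance from the region's centre (x axis, kb), 1 line per library. At the centre the cKO lines stand at 84.1% to 90.8% and those of WT replicates 1 and 2 at 45.1% and 69.2%.

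Most members lay more than 2 kb from the outer edges of coding genes, a measure that does not count starts inside a gene. Of the 630, 40 (6.35%, exact 95% interval 4.57 to 8.55%) lay within 2 kb of the outer edge of a coding gene. That share was 5.17% for WT-only regions, 6.74% for regions in a single list and 35.1% for regions in all 6 lists. Over all merged regions it was 22.5%. A gene body was touched by 366 members (58.1%, 54.1 to 62.0%), against 49.8% of WT-only regions (45.7 to 54.0%) and 68.1% of regions in all 6 lists. Among all merged regions 62.5% touched one. More than 100 kb from any protein-coding gene lay 86 members (13.7%, 11.1 to 16.6%), against 125 WT-only regions (21.6%, 18.3 to 25.1%) and 13.6% of all merged regions. The members' share was thus that of all merged regions, and neighbouring regions are not independent. The 264 members outside genes had a median distance of 53842.5 bp to the nearest one. Where the strand of the host gene was known (275 members), the 4 successive stretches of 25% of the gene from its start held 25.8%, 24.0%, 25.1% and 25.1% of the members. Regions in all 6 lists were placed differently, with 55.6% in the first 25% of the gene. Host genes of members had a median length of 138526 bp, against 187974 bp for WT-only regions and 70334 bp for regions in all 6 lists. Long noncoding RNA genes overlapped 67 members (10.6%), against 12.1% of WT-only regions. The gene table gives no exons, so exon, intron and UTR positions were not assigned.

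**Figure D4:**
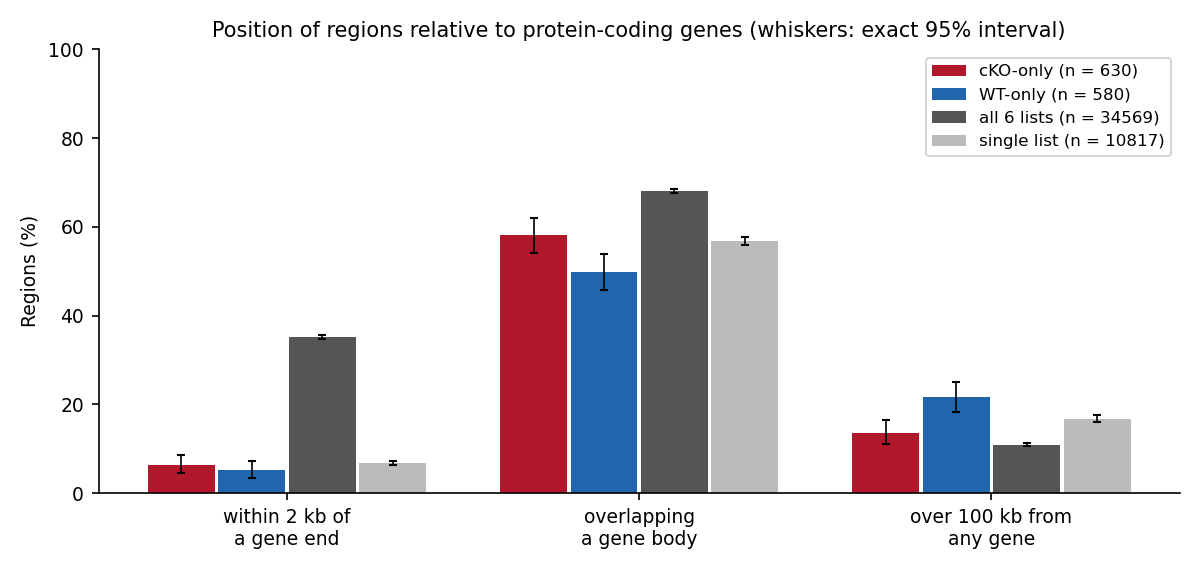
Position of cKO-only regions (first), WT-only regions, regions in all 6 lists and regions in a single list relative to protein-coding genes (y axis, percent of regions, with exact 95% intervals). The share within 2 kb of a gene end was 6.35% for cKO-only regions, 5.17% for WT-only regions and 35.1% for regions in all 6 lists.

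Members were scattered over 567 nearest genes and all chromosomes but Y. Their share of merged regions ran from 0.597% on chromosome 9 (21 members) to 1.45% on chromosome 15 (38 members), and 11 were on X. Another member lay within 100 kb of 79 of them (12.5%, 10.1 to 15.4%), and a WT-only region within 100 kb of 41 (6.51%, 4.71 to 8.73%). For WT-only regions, 56 (9.66%, 7.38 to 12.4%) had another of their class within 100 kb. The 79 members fell into 37 groups, of which 4 had at least 3 members, and the WT-only regions formed 27 groups, of which 2 had at least 3. Within 10 kb of a region common to all 6 lists lay 245 members (38.9%, 35.1 to 42.8%), against 208 WT-only regions (35.9%, 32.0 to 39.9%).

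Each protein-coding gene was then given a window of its body plus 20 kb on each side. Of 21887 genes, 511 (2.33%) had a member in the window and 418 (1.91%) a WT-only region, and 35 had both. The gene lists below were chosen with earlier results of these data known, and long genes catch more regions, so the median gene length of each list is given where a list is described. Of the 45 axon guidance and migration receptors (median length 188791 bp, against 17169 bp over all genes), 8 (17.8%) had a member and 9 (20%) a WT-only region. The 8 were Plxnc1, Unc5a, Efna5, Sema6d, Plxna4, Pdzrn3, Robo3 and Ephb1. Pdzrn3 is on that list because of the study's own publication. Members made up 2.16% of the merged regions in the windows of this list, against 0.786% over all genes, and WT-only regions made up 1.5%, against 0.634%. Of its 13 members, 4 were at Pdzrn3. Sema6d, a transmembrane semaphorin gene, held 2 members, and the one with no WT peak had 6.70, 5.0 and 5.41 in cKO. Ephb1, an ephrin receptor gene, had 5.19, 6.19 and 5.40 in cKO, against 3.72 and 4.07 in WT replicates 1 and 2.

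Among adhesion genes (43 cadherins, teneurins and others, median length 423594 bp), 3 had a member, Lsamp, Tenm3 and Cdh13, and 8 a WT-only region. Members made up 0.631% of the merged regions in these windows. The 36 voltage-gated channel genes (median length 250504 bp) had 4 with a member, Kcnh1, Cacna1d, Cacnb2 and Kcnj3, and 2 with a WT-only region. Cacnb2, a calcium channel subunit gene, held the strongest of these, with 9.63, 6.52 and 7.88 in cKO and no WT peak. The 36 glutamate and GABA receptor genes (239201 bp) had 3 with a member, Grm4 and Grik4 among them, and 6 with a WT-only region. Of 45 transcription factors of neural lineages (137600 bp), 3 had a member, Myt1l, Sox5 and Sox6, and 6 a WT-only region. The 33 cortical patterning factors (12584 bp) had 1 with a member, Zic2, and 4 with a WT-only region, and members made up 0.410% of the merged regions in their windows. Of 27 Prdm genes and Prdm16 partners (60409 bp), 2 had a member, Mecom and Prdm16, and 0 a WT-only region.

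By the share of genes with a member, signalling lists were near the background of all genes. The Wnt list (43464 bp) had 1 of 35 genes with a member, Kremen1, and 1 with a WT-only region, Fzd5. The BMP and TGF-beta list (53621 bp) had 1 of 38 with a member, the inhibitory Smad7, and 2 with a WT-only region. Members made up 1.62% of the merged regions in the Wnt windows, all 3 of them at Kremen1. In the BMP and TGF-beta windows they made up 0.532%, against 0.786% over all genes. WT-only regions made up 1.08% and 1.06%, against 0.634%. No radial glia gene (0 of 20, with 102 merged regions in their windows), intermediate progenitor or proneural gene (0 of 14), Cajal-Retzius or hem gene (0 of 15) or interneuron and ventral forebrain gene (0 of 21) had a member, and none of these had a WT-only region. Their median lengths were 15566.5, 4145.5, 25687 and 5869 bp, and in lists this short a count of 0 is near the 2.33% of all genes and is not a result. Vascular, microglial and meningeal markers (37295 bp) had 0 of 20 with a member and 1 with a WT-only region, Cx3cr1. Upper-layer neuron genes (136967 bp) had 2 of 16 with a member, Cux2 and Plxna4, and 3 with a WT-only region, Cux2 among them. Deep-layer genes (90402 bp) had 1 of 15 with a member, Sox5, and 1 with a WT-only region, Foxp2.

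Some listed genes were the nearest gene of a member that lay outside the 20 kb margin, as with Sox2, Sox9 and Hes1 above. Lhx8, a factor of ventral forebrain neurons, was 50761 bp from a member with 5.69, 5.41 and 8.92 in cKO and no WT peak. Cux1, an upper-layer factor, was 55491 bp from one with 5.23, 5.49 and 4.34 in cKO and no WT peak. Dcn, which encodes the matrix proteoglycan decorin, was 228330 bp from one with 5.43, 5.43 and 4.75 in cKO and no WT peak. These 3 members were thus empty in all full WT lists, although none lay near its gene. Cxcr4, the receptor that guides migrating interneurons and Cajal-Retzius cells, was nearest to 2 members, 197102 and 93063 bp away. The stronger one had 5.93, 6.53 and 6.65 in cKO, against 3.10 and 4.62 in WT replicates 1 and 2. Msx2, a transcription factor induced by BMP, was 161341 bp from a member with 7.75, 5.20 and 10.01 in cKO, against 3.64 and 3.39. Further members of this kind were nearest to Grin3a (67861 bp), Bcl11a (134189 bp), Acvr2a (750097 bp) and Pcdh9 (1124067 bp), each with a weaker peak in at least 1 WT list.

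Of 16 oligodendrocyte and astrocyte genes (median length 20269.5 bp), 2 had a member, Sox10 among them, and 1 a WT-only region, Nfia. Sox10 is the transcription factor that drives oligodendrocyte and neural crest identity. The member in the Sox10 window lay inside the neighbouring Polr2f and had 6.20, 5.40 and 6.0 in cKO, against 3.45 and 4.70 in WT replicates 1 and 2. Another region, chosen after its values were seen, lies 235 bp from the hairpin of Mir219a-2, whose product miR-219 is known to promote oligodendrocyte differentiation in mice. It lies inside Cercam, had 7.04, 4.61 and 4.18 in cKO, against 3.49 in WT replicate 1, and ranked 618 among the 630. The mature sequence in RefSeq, on the minus strand at chr2:29845689-29845709, is shown with its seed, bases 2 to 8, in capitals.
mmu-miR-219a-5p: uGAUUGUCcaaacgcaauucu
Of the oligodendrocyte markers checked in the libraries, Olig1 and Olig2 had no peak of the shortened lists within 2 kb in any of the 6, and Sox10 had one in cKO replicate 2 only.

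The members were chosen on all 6 libraries, so the rule was repeated with 1 cKO and 1 WT library left out, and the chosen regions were looked up in the libraries left out. Over the 9 possible pairs, between 1557 and 1701 regions were chosen from the 4 remaining lists. Of these, 60.9 ± 1.91% had a peak in the shortened list of the cKO library left out and 33.2 ± 1.45% in that of the WT library left out (SD over 9 pairs that share libraries). The difference was 27.8 ± 2.26 percentage points, ranged from 24.0 to 30.5, and had the cKO library higher in 9 of 9 pairs. In each pair, 626 to 637 chosen regions were found in the cKO library left out but not in the WT one. By the rule, these were nearly the members themselves. Another 154 to 229 were found in the WT library left out but not in the cKO one. The 9 pairs thus recount largely the same regions of the same lists and are not independent checks of the members. With the batch A libraries choosing 1646 regions and the batch B libraries left out, the shares were 60.1% in cKO and 32.5% in WT. Regions chosen as WT-only in the same way were present in 32.7 ± 2.46% of cases in the cKO library left out and 57.7 ± 3.90% in the WT library left out, a difference of −24.9 ± 4.05 percentage points. The same limit holds for these WT-only choices. No p-value is given, since the pairs share libraries and 3 against 3 libraries are few.

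**Figure D5:**
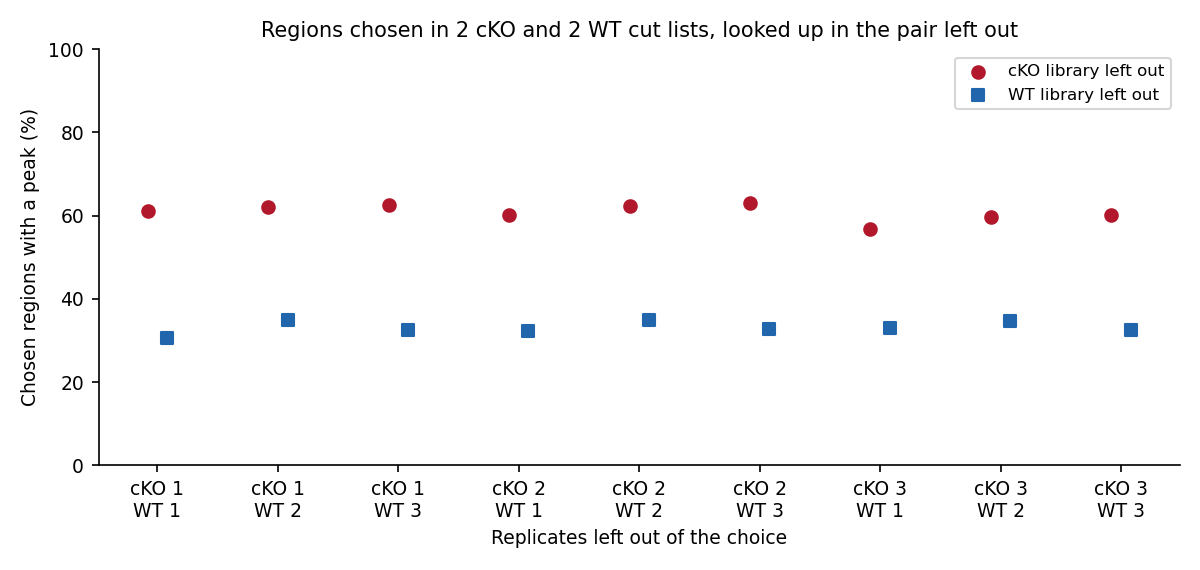
Share of chosen regions with a peak in the shortened list of the library left out (y axis, percent) for each of the 9 pairs of 1 cKO and 1 WT library, with cKO points before WT points. For regions chosen as cKO-only, cKO libraries stand at 56.9% to 62.9% and WT libraries at 30.7% to 35.0%.

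At the edge of the rule, the 5 members with a cKO peak nearest to rank 48168 were at Zdhhc14, Sdk2, Xpr1, Rtl6 and Macrod2. Regions at Cd82, Mphosph6, Rgmb and Pcdhb8 fell just outside it because 1 cKO peak ranked between 48194 and 48204. On the WT side, members at Tnfrsf1a, Ccdc83, Ndfip2, Lrmda and Rpl5 were kept with a strongest WT peak at ranks 48187 to 48283. Regions at Sec14l1, Sox4, Frmd8, Etv5 and Bnip5 were left out with one at ranks 48072 to 48159. At Sox4, a factor of newborn neurons, that peak had a −log10 p of 4.58 in WT replicate 1.

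The full lists held 59209, 58682 and 55015 peaks in cKO and 66493, 75563 and 48168 in WT. Shortening them left a lowest −log10 p of 4.41, 4.19 and 4.13 in the cKO lists and 4.58, 5.06 and 3.12 in the WT lists, so the same rank stood for a different strength in each library. Read depth is unknown. Of 10 dorsal forebrain markers, 9 had a peak of the shortened lists within 2 kb in all 6 libraries. Of 7 ventral forebrain and interneuron markers 6 were marked in all 6 libraries, and of 13 markers of microglia, blood, vessels and meninges 4 were. None of these markers had a member in its window, and the part of cell composition in the 630 regions was not tested.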

How the data were processed

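Native H3K27ac ChIP-seq of E15.5 cortex gave 1 broad peak list per library (3 cKO, 3 WT). The 6 input libraries were not analysed here. The submitters' processing notes name mm10, MACS2 2.1.1, Bowtie2 2.2.8, cutadapt and FastQC. Their parameters, the control and any pooling before peak calling are not stated there. The deposited lists give each peak a fold enrichment ratio, a −log10 p and a −log10 q, and the authors' display score was not used. These values ranked and described peaks within a list. Without read counts, depth is unknown.

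Each list was cut to its 48168 highest −log10 p (ties by chromosome, then start). Peaks that overlapped or touched were merged, and a library was present where a cut-list peak overlapped the region. Gene names and positions were read from RefSeq's GRCm38.p6 gene table (21887 protein-coding genes, without exons). Unless stated otherwise, a member is named by its nearest protein-coding gene, whether it lies inside that gene or not. All 449 genes on the 17 lists were in the table. Shares carry exact Clopper-Pearson 95% intervals over regions, which are not replicates and cover counting error only. Scripts ran under Python 3.11.15, with pandas 2.3.3 and numpy 2.4.6 for tables, scipy 1.17.1 for intervals and matplotlib 3.10.9 for plots. On simulated lists at full length all 200 planted cKO-only regions were recovered. They were planted as strong peaks in every cKO list and in no WT list. Recovery of weak peaks near the cut was not tested.

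The members and gene lists were chosen with earlier results of these data known. Named regions were the 20 strongest by lowest cKO −log10 p, the 10 widest, groups of at least 3 within 100 kb, promoter members, those nearest the cut, up to 3 per gene list, the 10 strongest without a WT peak within 1000 bp, and genes nearest to at least 3 members. Sema6d, Ephb1 and the members at Sox10 and Mir219a-2 were named after their values were seen. A few genes that the rule names are not reported here. Alternatives were other list lengths, ranking by −log10 q or fold, a −log10 q of at least 5, merging across 1000 bp, 50% coverage, each library left out, batch A alone, other distances and same-numbered pairs.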

Additional observations from a re-analysis of the deposited data

How the results depend on the processing

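Of 16 alternative choices of regions, 10 moved the count of cKO-only regions. Lists of 30000 and 20000 peaks gave 370 and 220, full lists 298 (with 779 WT-only), a −log10 q of at least 5 gave 233, batch A alone 1646, and leaving out 1 library gave 945 to 1111. The members themselves moved more than the count: 191 of the 630 were also chosen with 40000 peaks, 24 with 30000, 1 with 20000 and 101 in full lists. Only the strongest Slc35d3 member was chosen in all 16. Ranking by −log10 q kept 628 and by fold 564. The median width became 1007, 1367.5 and 1648.5 bp with 40000, 30000 and 20000 peaks, 743.5 bp in full lists, 1307 bp at the higher −log10 q, 1028 bp with 50% coverage, 718 bp in batch A and 652.5 to 890 bp with 1 library left out. The share within 2 kb of a gene end became 10.3%, 12.3% and 8.58% with 30000 peaks, 20000 peaks and the higher −log10 q, and 11.7% within 5 kb. The share in gene bodies became 52.3% in full lists. The share with a WT peak became 62.2% when 50% of the region had to be covered and 57.5 to 84.0% with 1 library left out. The share near another member was 8.57% within 50 kb and 22.2% within 200 kb. The cause of these changes was not tested, but a shorter list asks for stronger peaks by construction.

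With same-numbered pairs only, the replicate block, the difference between libraries left out was 28.5 percentage points, against 27.8 over all pairs. The same-numbered pairs are among those above and recount largely the same regions. The labels do not say that a number marks shared embryos, and only the batch is shared.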
